A study of Mus musculus with 12 samples.

Results

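The 39 genes described here act in meiosis, the cell division that makes haploid eggs and sperm. They were chosen by symbol, as genes of meiotic entry, the synaptonemal complex, meiotic cohesin and recombination, and all 39 were found among the 38986 genes of each count file. Of these, 30 passed the filter on low counts and were tested among 18405 genes, all by 1 filter on the whole table. A gene can pass that filter through 1 group in which it is high, so counts and medians over the 30 describe the genes tested and not all 39. The 9 below the filter were Syce3, Rad21l, Spo11, Mei1, Meiob, Spata22, Msh4, Majin and Terb2.

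RNA was sequenced from teratomas, tumours of mixed tissues that mouse embryonic stem (ES) cells form after injection into immunodeficient mice. The R1 ES cell line had been transduced with lentivirus of the pEZ-Lv235 vector, in which the CAG promoter drives the insert, and selected with puromycin as stable pools. The 4 groups carried the empty vector (ET), wild-type Dnmt3L (WT), or Dnmt3L in which a lysine that can be acetylated was replaced by arginine (K238R or K412R). Cells were injected under the skin of male NOD-Prkdc EM1 mice aged 8 weeks, and tumours were taken on day 21, giving 3 libraries per group from 3 teratomas. The inactivated Prkdc of the host and the vector backbone were shared by all groups. No label says whether the teratomas of a group came from separate transductions, and the p-values therefore measure the spread between these tumours only.

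Meiosis begins when germ cells, instructed by retinoic acid, switch on Stra8 and with it the genes of meiotic prophase. Chromosomes are then held along an axis of meiotic cohesin and HORMA-domain proteins, cut on purpose by Spo11 and its helpers, repaired from the homologue by Dmc1, and zipped together by the synaptonemal complex. Outside the germ line many of these genes are held silent by DNA methylation of their promoters or by repressors of the E2F6 complex. Dnmt3L has no methylating activity of its own and works as a partner of the de novo DNA methyltransferases, and it is itself needed for meiosis in male germ cells. No methylation was measured in these teratomas.

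Promoters of 4 genes that the results below turn on are shown, 250 bases before to 50 bases after the transcription start, from RefSeq on mouse build GRCm38.p6. Capitals mark 3 motifs searched on both strands: the E2F core TCCCGC, the E-box CACGTG and the nuclear receptor half-site AGGTCA. None of the 3 contains another.
Stra8, chr6:34920698-34920997, plus strand: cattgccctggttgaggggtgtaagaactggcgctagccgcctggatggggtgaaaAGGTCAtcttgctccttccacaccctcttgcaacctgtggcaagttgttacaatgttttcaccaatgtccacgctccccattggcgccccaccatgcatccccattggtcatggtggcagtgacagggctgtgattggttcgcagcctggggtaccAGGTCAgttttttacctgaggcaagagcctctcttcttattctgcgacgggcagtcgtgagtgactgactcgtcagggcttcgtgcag
Sycp1, chr3:102936051-102936350, minus strand: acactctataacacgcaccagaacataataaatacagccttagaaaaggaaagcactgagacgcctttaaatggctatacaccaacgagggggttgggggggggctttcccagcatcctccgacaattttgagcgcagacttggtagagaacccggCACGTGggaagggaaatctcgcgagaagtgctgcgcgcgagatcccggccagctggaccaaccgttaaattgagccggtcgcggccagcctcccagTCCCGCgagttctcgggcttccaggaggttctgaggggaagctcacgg
Rec8, chr14:55617916-55618215, plus strand: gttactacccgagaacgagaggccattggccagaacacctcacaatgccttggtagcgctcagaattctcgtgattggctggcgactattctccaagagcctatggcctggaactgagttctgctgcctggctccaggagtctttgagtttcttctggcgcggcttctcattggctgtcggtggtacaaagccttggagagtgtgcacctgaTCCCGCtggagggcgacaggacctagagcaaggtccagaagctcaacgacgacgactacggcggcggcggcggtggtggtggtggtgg
Ankrd31, chr13:96748043-96748342, plus strand: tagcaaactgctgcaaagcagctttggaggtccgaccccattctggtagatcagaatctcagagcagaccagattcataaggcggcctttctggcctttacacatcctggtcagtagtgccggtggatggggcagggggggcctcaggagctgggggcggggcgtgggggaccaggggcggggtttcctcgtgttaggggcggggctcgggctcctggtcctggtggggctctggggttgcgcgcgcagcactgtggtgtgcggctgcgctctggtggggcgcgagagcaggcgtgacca
The promoter of Stra8, the regulator of meiotic entry, held the half-site in 2 places and 10 CpG dinucleotides, without an E2F core or E-box. That of Sycp1 held 21 CpGs with both an E2F core and an E-box, that of Rec8 held 18 CpGs with an E2F core, and that of Ankrd31 held 17 CpGs with none of the 3 motifs. RefSeq promoters were matched for 32 of the 39 genes, 37 promoters in all, and their median number of CpGs was 18, against 7 over all 32851 promoters. The E2F core occurred in 23 of the 37 (62.2%) and in 20% of all promoters. Among the 11920 promoters with at least 14 CpGs, the lower quartile of the meiosis promoters, it occurred in 44.5%. The E-box occurred in 21.6% of the meiosis promoters, in 7.15% of all and in 11.3% of those with at least 14 CpGs, and the half-site in 18.9%, 16.3% and 9.56%. These shares describe letters in a window and not binding. The 13 matched promoters of genes named in full below held the E2F core in 61.5%, against 62.5% of the 24 others.

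The 12 libraries held between 16957677 and 18546100 counts. Levels are given as counts per 1000000 (CPM) on totals scaled by edgeR's TMM method, and 3 counts, the limit that a count of 0 allows, correspond to 0.158 to 0.179 CPM, for counting error only. Dnmt3l, which the constructs carry, was read first to check the labels. It stood at 3.52 ± 3.72 CPM (SD, n = 3) for ET, 194 ± 27.0 for WT and 34.7 ± 8.52 in K412R, but at 1.17 ± 0.665 in the teratomas labelled K238R, where all 3 lay within or below the range of ET. The substitution itself cannot be read from gene counts, and these teratomas are called K238R-labelled throughout. ET replicate 2 and WT replicate 1 stood apart in the median over the tested meiosis genes of log2(CPM + 0.5) minus the ET mean. This median was -0.36 for ET replicate 2, with ET replicates 1 and 3 at 0.042 and 0.23. For WT replicate 1 it was -0.079, with WT replicates 2 and 3 at -0.66 and -0.73. ET replicate 2 was the lowest ET library in 24 of 30 genes and WT replicate 1 the highest WT library in 21 of 30. The share over all genes is not given, so this is not read as particular to the meiosis genes. The same measure over 20 mitosis genes was -0.63 in ET replicate 2, with ET replicates 1 and 3 at 0.00029 and 0.62. It was -0.49 in WT replicate 1, with WT replicates 2 and 3 at -1.11 and -1.27. Counts that depend on these 2 libraries are also given without them.

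Meiotic transcripts were present in every teratoma at low levels. Per kilobase of exon, Psmc3ip at 8.71 CPM per kb and Hspa2 at 8.29 stood highest over the 12 libraries, followed by Mnd1 at 4.99, Syce2 at 4.53, Rec8 at 4.20 and Stag3 at 4.03, while Mei1 at 0.0192 stood lowest. Of the 39 genes, between 28 and 35 per library exceeded 3 counts' worth. WT replicates 2 and 3 had the fewest, 28 each, and ET replicate 3 and K238R-labelled replicate 2 the most, 35 each. ET replicate 3 was also the library with the highest level of 11 of the 30 genes tested, and WT replicates 2 and 3 had the lowest level of 10 and 6.

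The meiosis genes as a list were lower in WT than in ET, unevenly and without passing the adjusted threshold. With edgeR's quasi-likelihood test, 0 of 30 reached an adjusted p under 0.05 in WT against ET, where 0.0489% of all genes did, and the lowest adjusted p was 0.099. At an unadjusted p under 0.05 there were 12, where 29.1% of all genes were, and 11 of these were lower in WT, where 15.1% of all genes were. DESeq2 called 8, all lower (Stra8, Tex11, Sycp1, Tex14, Psmc3ip, Syce1, Ankrd31 and Rec8), where it called 10.3% of all genes. By the study's criterion of a 2-fold difference with an unadjusted p under 0.05, called the 2-fold criterion from here on, 9 of 30 were lower in WT, where 2.78% of all genes were, and 1, Mei4, was higher, where 3.3% of all genes were. In 8 of 30 all 3 WT libraries lay below all 3 ET libraries, against 10.5% of all genes. In 1 of 30 they lay above all 3, where they did in 1886 of all 18405 genes. The median log2 fold change was -0.64 over the 30 genes and -0.01 over all genes tested. Since bulk RNA was measured, fewer cells with these transcripts and less of them per cell cannot be told apart. Whether any cell was in meiosis was not tested.

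**Figure D1:**
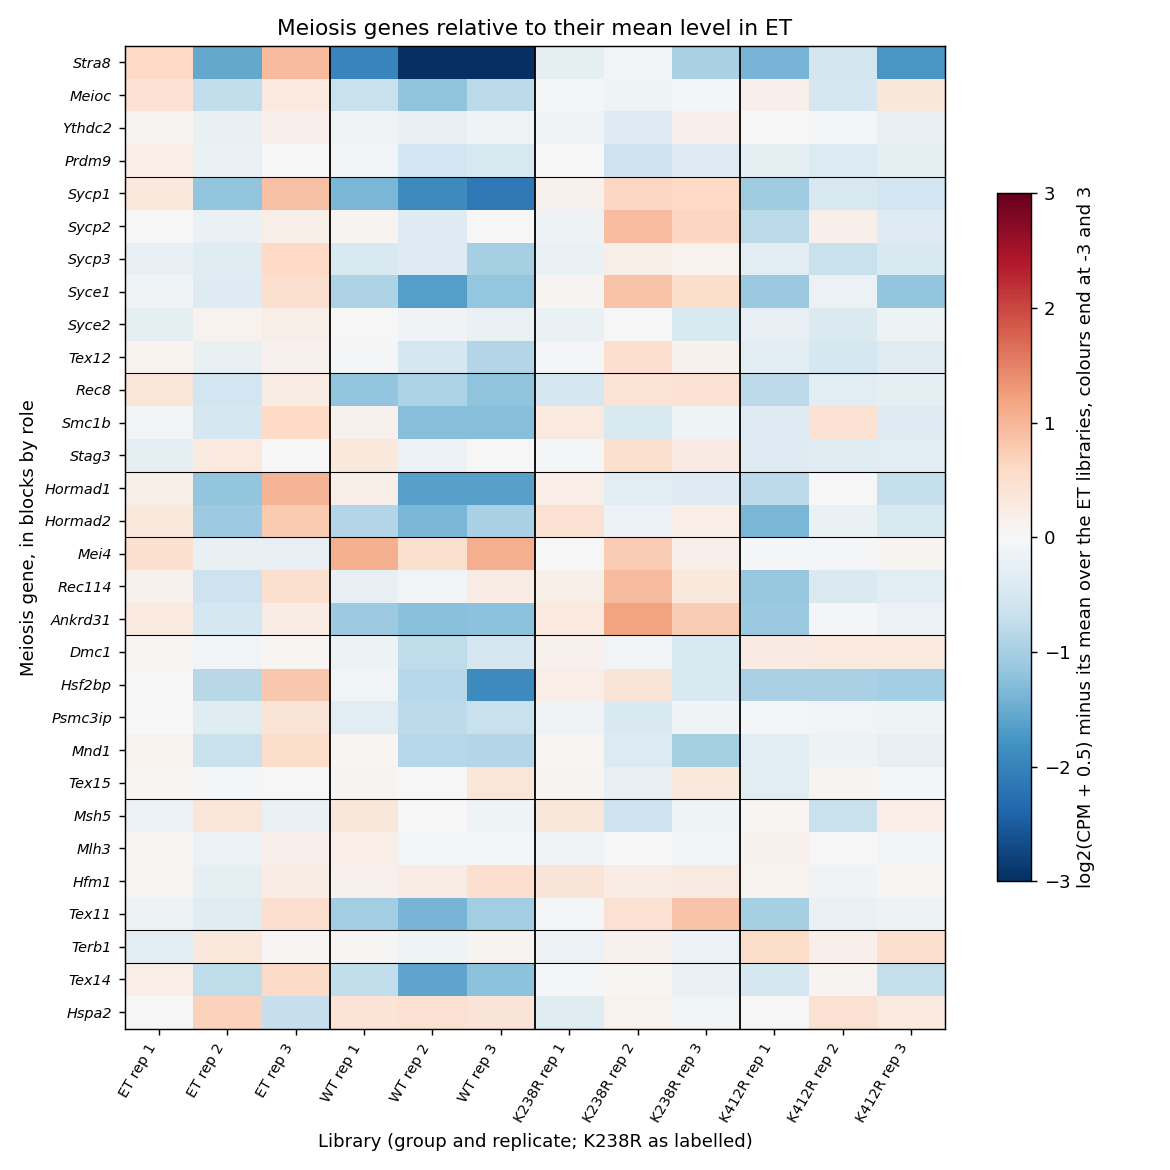
Level of the 30 tested meiosis genes (rows, in blocks by role) in the 12 libraries (columns), as log2(CPM + 0.5) minus the gene's mean over the 3 ET libraries, blue where lower and red where higher. Blue is deepest in WT replicates 2 and 3, where Stra8 had 1 count each, ET replicate 2 is bluer than the other ET libraries, and Ythdc2, Mlh3 and Tex15 are pale throughout.

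The list had a median above WT in the K238R-labelled teratomas and in K412R. With the K238R-labelled teratomas against WT, 1 of 30, Ankrd31, rose past the adjusted threshold, where 0.174% of all genes passed it, and DESeq2 called 6, all higher, with 4.27% of all genes. An unadjusted p under 0.05 was found for 11, all higher, where 7.93% of all genes were. By the 2-fold criterion 10 of 30 were higher, where 1.68% of all genes were, and 0 were lower, where 3.59% were. The 3 libraries lay above all WT libraries in 10 of 30 genes, against 11.4% of all genes. They lay below all WT libraries in 1 of 30, where they did in 2296 of all 18405 genes. The median log2 fold change of the list was 0.68. In K412R against WT 0 of 30 passed the adjusted threshold with edgeR, where 2.02% of all genes did, 11 had an unadjusted p under 0.05, with 22.8% of all genes, 9 of them higher, where 10.2% of all genes were, and DESeq2 called 1, Dmc1, with 9% of all genes. By the 2-fold criterion 5 were higher, where 1.66% of all genes were, and 1, Mei4, was lower, where 3.38% of all genes were. Without overlap 9 of 30 were higher, against 15.4% of all genes, and 4 were lower, where 3095 of all 18405 genes were. The estimate was higher for 19 and lower for 11, where it was for 9420 and 8985 of all 18405 genes, and the median of the list was 0.22. These comparisons share the WT libraries with each other and with WT against ET.

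**Figure D2:**
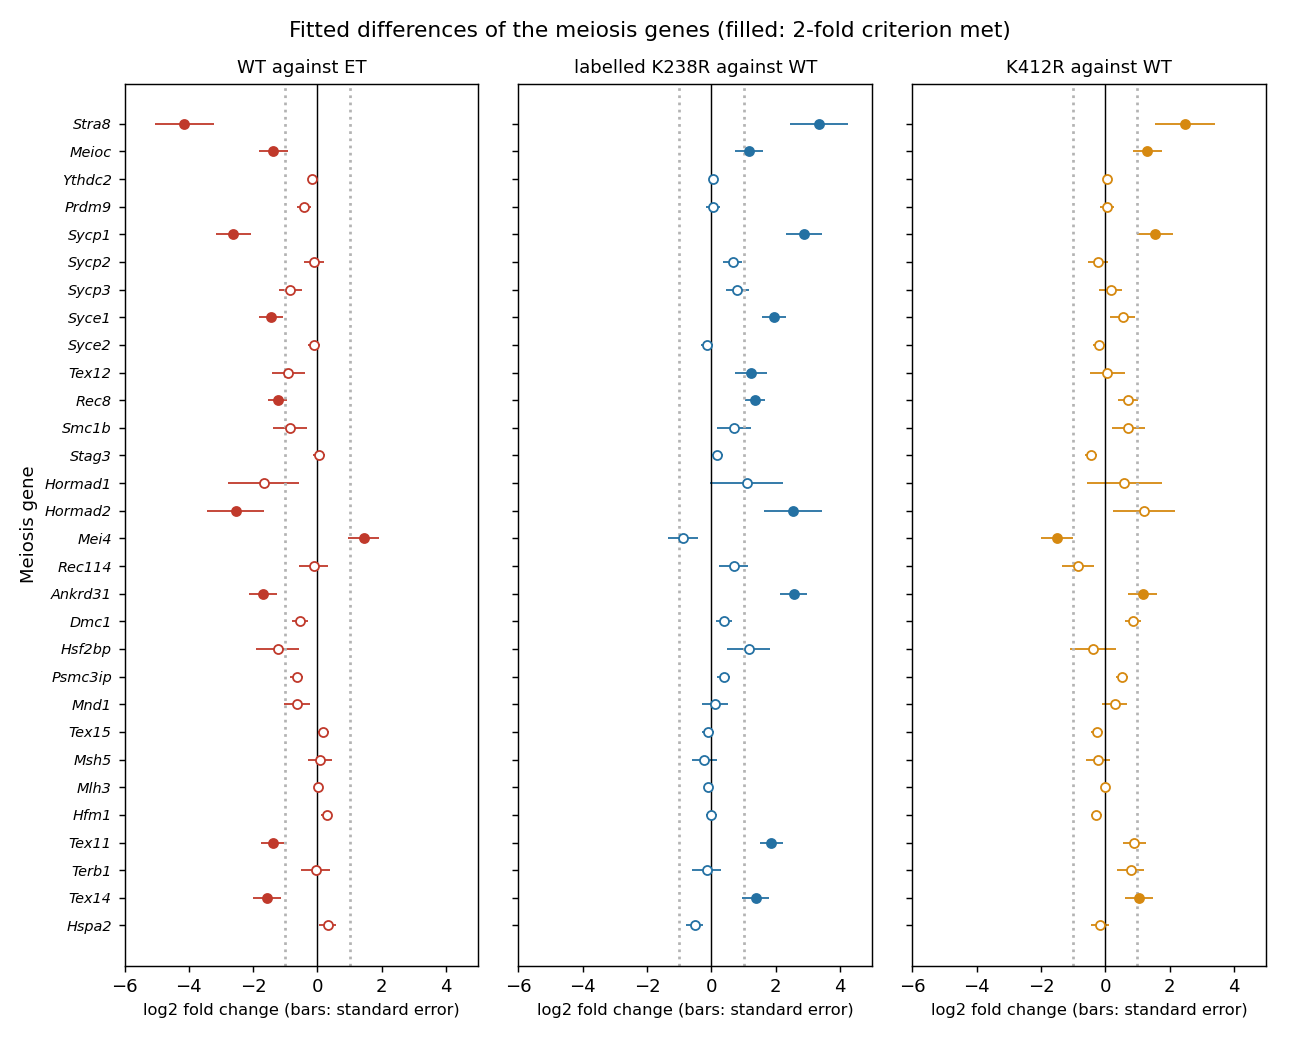
Fitted log2 fold change with its standard error (bar) of the 30 tested meiosis genes (rows) in WT against ET, in the K238R-labelled teratomas against WT and in K412R against WT, with filled points where the 2-fold criterion was met and dotted lines at a 2-fold difference. Filled points are 9 lower and 1 higher in the left panel, 10 higher in the middle one, and 5 higher and 1 lower on the right.

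Stra8, which retinoic acid induces at meiotic entry, had the largest fitted difference of the list in WT against ET. Its CPM were 9.37, 1.75 and 12.2 in ET replicates 1 to 3, and 1.17, 0.0566 and 0.0595 for WT, which are 21, 1 and 1 counts. They were 4.87, 5.70 and 2.84 in the K238R-labelled teratomas and 1.99, 3.96 and 1.45 in K412R. WT replicate 1 stood near the lowest ET library, replicate 2, while the WT libraries as a group lay below all 9 others. The log2 fold change was -4.14 in WT against ET (standard error, SE, 0.91, adjusted p = 0.099), 3.34 in the K238R-labelled teratomas against WT (SE 0.91, adjusted p = 0.117) and 2.48 in K412R against WT (SE 0.93, adjusted p = 0.149). Against ET, Stra8 had log2 fold changes of -0.80 and -1.66 in these 2 groups (adjusted p = 0.817 and 0.629), with overlapping libraries. Meioc, which keeps germ cells in meiotic prophase, had 2.47, 0.817 and 2.20 CPM for ET and 0.889, 0.453 and 0.774 for WT. It had 1.64, 1.51 and 1.63 CPM in the K238R-labelled teratomas and 1.93, 1.05 and 2.26 in K412R. Only ET replicate 2 of the 9 libraries outside WT overlapped the WT range. Its log2 fold change was -1.37 in WT against ET (SE 0.45, adjusted p = 0.113), and 1.17 and 1.30 in the K238R-labelled teratomas and K412R against WT (adjusted p = 0.218 and 0.123).

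The other 2 genes of meiotic entry and early prophase differed less. Ythdc2, the RNA-binding partner of Meioc, which is also used in other cells, had between 18.8 and 27.3 CPM in all 12 libraries, and its WT-to-ET log2 fold change was -0.16 (adjusted p = 0.475). Prdm9, the histone methyltransferase that marks recombination sites, had 3.35 to 6.34 CPM, with a log2 fold change of -0.41 in WT against ET (adjusted p = 0.231) and 0.05 and 0.06 in the K238R-labelled teratomas and K412R against WT.

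Among the genes of the synaptonemal complex, Sycp1 and Syce1 met the 2-fold criterion in WT against ET, and Sycp2 and Sycp3 of the lateral element did not. Sycp1, the transverse filament that spans the gap between homologues, had 4.49, 1.28 and 6.88 CPM for ET and 1.06, 0.566 and 0.417 for WT. It had 3.92, 5.75 and 5.57 in the K238R-labelled teratomas and 1.42, 2.39 and 2.20 in K412R, so that every library outside WT lay above every WT library. The fitted log2 fold change was -2.62 in WT against ET (SE 0.55, adjusted p = 0.099), 2.88 in the K238R-labelled teratomas against WT (SE 0.55, adjusted p = 0.0671) and 1.54 in K412R against WT (SE 0.56, adjusted p = 0.138). Syce1, a central element protein, had 5.11, 4.09 and 7.89 CPM for ET, 2.67, 1.42 and 2.20 for WT, 5.87, 10.3 and 8.10 in the K238R-labelled teratomas and 2.28, 4.78 and 2.15 in K412R. The K412R libraries overlapped WT and the K238R-labelled teratomas did not. Its log2 fold change was -1.44 in WT against ET (SE 0.38, adjusted p = 0.103), 1.94 in the K238R-labelled teratomas against WT (SE 0.38, adjusted p = 0.0698) and 0.55 in K412R against WT (SE 0.39, adjusted p = 0.413).

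Tex12, another central element protein, was near the filter, with 2 to 20 counts per library. Its CPM were 0.730, 0.467 and 0.733 for ET, 0.611, 0.283 and 0.119 for WT, 0.582, 1.12 and 0.736 in the K238R-labelled teratomas and 0.398, 0.291 and 0.376 in K412R. It met the 2-fold criterion only with the K238R-labelled teratomas higher, against WT (log2 fold change 1.23, adjusted p = 0.240, libraries overlapping) and against K412R (1.17, adjusted p = 0.385, not overlapping). Sycp3, a lateral element protein and the usual stain for meiotic chromosomes, had 1.74, 1.58 and 3.55 CPM for ET and 1.44, 1.53 and 0.833 for WT. It had 1.80, 2.51 and 2.37 in the K238R-labelled teratomas and 1.65, 1.17 and 1.45 in K412R. The WT libraries lay below the ET libraries by a narrow margin, 1.53 against 1.58, and the log2 fold change of -0.85 (SE 0.36, adjusted p = 0.152) did not reach the 2-fold criterion. Sycp2, the partner of Sycp3 in the lateral element, had 5.21 to 7.39 CPM for WT within the spread of ET (6.01 to 8.0), and its highest values were 13.7 and 11.1 in K238R-labelled replicates 2 and 3. Syce2, of the central element, had 6.10 to 9.75 CPM in all 12 libraries and a log2 fold change of -0.11 in WT against ET (adjusted p = 0.695). Syce3 had 9 counts in all 12 libraries together and 0 in each WT library.

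**Figure D3:**
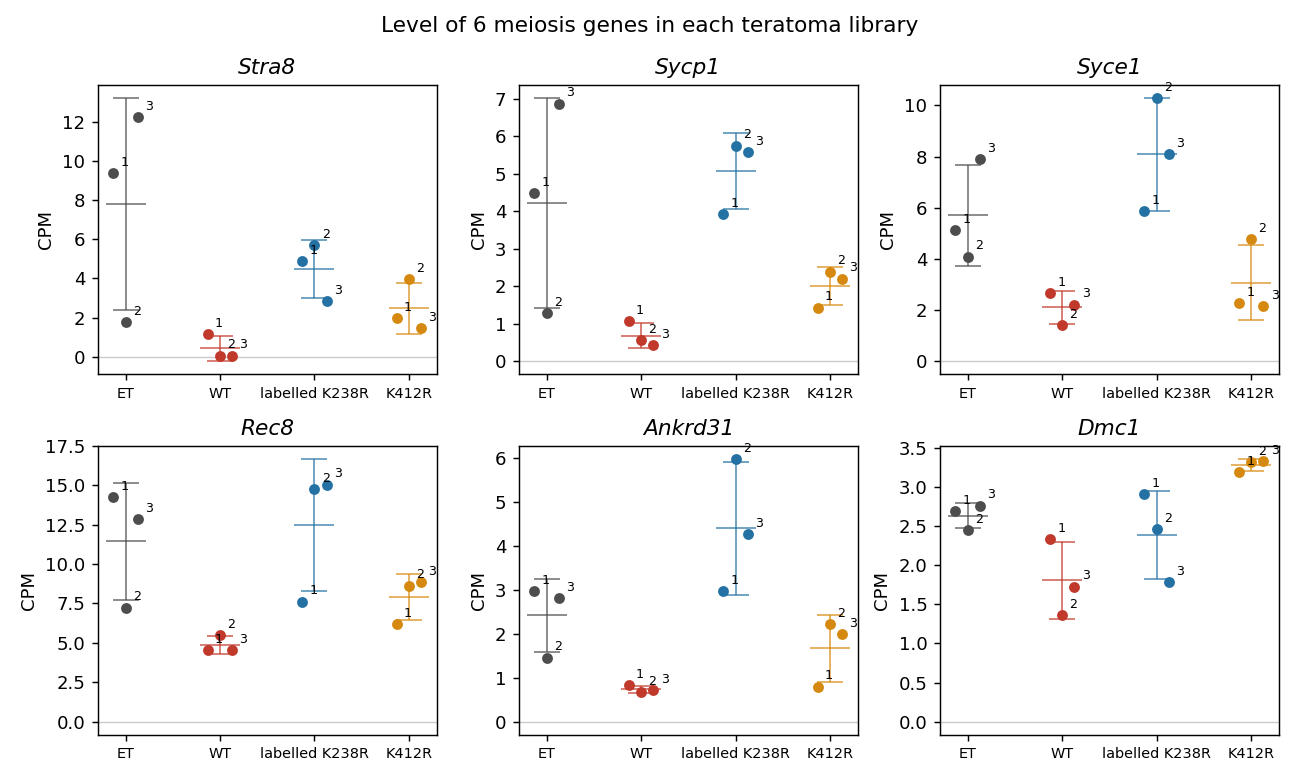
CPM of 6 meiosis genes in each library (points, numbered by replicate) in ET, WT, the K238R-labelled teratomas and K412R, with the group mean (long bar) and 1 SD (whiskers). Stra8 and Sycp1 are low in all WT libraries and low in ET replicate 2, at 1.75 and 1.28 CPM, Syce1 and Ankrd31 reach 10.3 and 5.98 in the K238R-labelled teratomas, and Dmc1 is highest in K412R.

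Of the 3 meiotic cohesin genes tested, Rec8 met the 2-fold criterion in WT against ET. Rec8, the kleisin that replaces Rad21 in the meiotic ring, had 14.3, 7.24 and 12.9 CPM for ET, 4.55, 5.49 and 4.52 for WT, 7.62, 14.7 and 15.0 in the K238R-labelled teratomas and 6.20, 8.63 and 8.86 in K412R. All 9 libraries outside WT lay above the WT libraries. Its log2 fold changes were -1.24 in WT against ET (SE 0.30, adjusted p = 0.101), 1.36 in the K238R-labelled teratomas against WT (SE 0.30, adjusted p = 0.0894) and 0.70 in K412R against WT (SE 0.30, adjusted p = 0.196). Per exon base, Rec8 stood at 4.89% ± 0.980 (SD, n = 3) of the level of Rad21, its mitotic counterpart, in ET, 2.88% ± 0.516 for WT, 6.41% ± 3.07 in the K238R-labelled teratomas and 3.18% ± 0.803 in K412R. Rad21 was itself estimated lower in WT than in ET, by 0.44 on the log2 scale (SE 0.18), and the highest WT ratio, 3.44%, lay below the lowest ET ratio, 4.13%. The ratios in K412R, 2.27% to 3.79%, also lay below ET and overlapped WT. Those in the K238R-labelled teratomas, 2.96% to 8.81%, overlapped both WT and ET, so the ratio did not set WT apart from all other groups.

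Smc1b, the meiotic form of Smc1a, split the WT group: 3.39 CPM in WT replicate 1 against 0.963 and 0.952 in the others. It had 1.99 to 4.85 for ET, 2.07 to 3.86 in the K238R-labelled teratomas and 2.20 to 4.37 in K412R, and its log2 fold change of -0.86 in WT against ET had a standard error of 0.52 (adjusted p = 0.276). Stag3, the meiotic form of Stag1 and Stag2, had 13.7 to 20.9 CPM for ET and 14.9 to 21.2 for WT (log2 fold change 0.05, adjusted p = 0.864). In K412R it had 12.8, 13 and 13.3 CPM, below every other library, with a log2 fold change of -0.45 against WT (SE 0.19, adjusted p = 0.187) and of 0.62 in the K238R-labelled teratomas against K412R (SE 0.19, adjusted p = 0.227). Stag3 stood at 19.9% ± 6.46 (SD, n = 3) of Stag2 per exon base in ET and at 25.6% ± 1.73 for WT. Rad21l, the other meiotic kleisin, had 3 to 10 counts per library.

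The 2 HORMA-domain genes of the chromosome axis varied widely among replicates. Hormad2 had 1.29, 0.175 and 1.97 CPM for ET and 0.278, 0.0566 and 0.238 for WT, so that ET replicate 2 fell within the WT range. It had 1.48, 0.782 and 1.16 CPM in the K238R-labelled teratomas, all above WT, and 0.0569, 0.758 and 0.537 in K412R. Its log2 fold change was -2.55 in WT against ET (SE 0.89, adjusted p = 0.118) and 2.54 in the K238R-labelled teratomas against WT (SE 0.89, adjusted p = 0.189). Hormad1 had 22 counts in WT replicate 1 and 0 in both other WT libraries, and 22, 3 and 46 for ET. Its log2 fold change of -1.68 had a standard error of 1.11 (adjusted p = 0.317).

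The genes that act with Spo11 in making double-strand breaks did not share a direction. Ankrd31, which brings the break machinery to the X-Y pairing region and to hotspots, had 2.98, 1.46 and 2.82 CPM for ET, 0.833, 0.680 and 0.714 for WT, 2.96, 5.98 and 4.26 in the K238R-labelled teratomas and 0.797, 2.21 and 1.99 in K412R. The WT libraries lay close together and below all ET libraries, and K412R replicate 1 fell within their range. Ankrd31 rose in the K238R-labelled teratomas against WT (log2 fold change 2.55, SE 0.43, adjusted p = 0.0449), but the call was lost with total count scaling and in 9 of 12 fits with 1 library removed, in which the log2 fold change stayed between 2.27 and 2.77. The fit gave log2 fold changes of -1.69 in WT against ET (SE 0.43, adjusted p = 0.101) and 1.16 in K412R against WT (SE 0.44, adjusted p = 0.154). Mei4, a core factor of break formation, was the one gene of the list that met the 2-fold criterion in the other direction. It had 0.786, 0.292 and 0.282 CPM for ET, 1.44, 0.793 and 1.49 for WT, 0.423, 1.06 and 0.526 in the K238R-labelled teratomas and 0.398, 0.408 and 0.483 in K412R, from 5 to 26 counts per library. The WT libraries lay above all ET and K412R libraries, in ET by 0.793 against 0.786 at the nearest. The fit gave a log2 fold change of 1.44 in WT against ET (SE 0.49, adjusted p = 0.116), -0.89 in the K238R-labelled teratomas against WT (adjusted p = 0.336) and -1.51 in K412R against WT (SE 0.49, adjusted p = 0.111).

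Rec114, the partner of Mei4, had 1.52, 0.701 and 2.09 CPM for ET, 1.06, 1.25 and 1.67 for WT, 1.59, 3.07 and 1.79 in the K238R-labelled teratomas and 0.341, 0.874 and 0.967 in K412R. WT and ET overlapped (log2 fold change -0.12, adjusted p = 0.878), and Rec114 met the 2-fold criterion only between the K238R-labelled teratomas and K412R (1.55, SE 0.48, adjusted p = 0.230). Spo11, the enzyme that cuts, had 1 to 6 counts in the 9 other libraries and 8, 9 and 10 in the K238R-labelled teratomas. In the fit without a filter on low counts its log2 fold change in these against ET was 1.62 (unadjusted p = 0.0435 and adjusted p = 0.828 from edgeR). Mei1 had 0 to 4 counts per library.

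Among the genes that load the recombinase and search for the homologue, Dmc1 was set apart by K412R. Dmc1, the meiotic recombinase, had 2.69, 2.45 and 2.76 CPM for ET, 2.33, 1.36 and 1.73 for WT, 2.91, 2.46 and 1.79 in the K238R-labelled teratomas and 3.19, 3.32 and 3.33 in K412R. The K412R libraries were above all others, with a log2 fold change of 0.86 against WT (SE 0.25, adjusted p = 0.0894 with edgeR and 0.041 with DESeq2) and 0.31 against ET (adjusted p = 0.762). Dmc1 lies on chromosome 15, as do Smc1b, Mei1 and Syce3. The 723 tested genes of chromosome 15 had a median log2 fold change of 0.29 in K412R against WT and of 0.16 in K412R against ET, with 74.8% and 76.8% of them higher, where the medians of all genes were 0.01 and -0.02. The part of this in the Dmc1 value was not tested.

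Hsf2bp, which brings Brca2 to meiotic breaks, had 1.85, 0.817 and 3.61 CPM for ET and 1.72, 0.793 and 0.119 for WT. It had 2.17, 2.57 and 1.21 CPM in the K238R-labelled teratomas and 0.683, 0.699 and 0.645 in K412R, where each library had 12 counts. It was the one gene to meet the 2-fold criterion in K412R against ET (log2 fold change -1.62, SE 0.69, adjusted p = 0.613), and it also did so in the K238R-labelled teratomas against K412R (1.54, SE 0.69, adjusted p = 0.412). Psmc3ip, which with Mnd1 helps Dmc1 invade the homologue, had 9.93 to 17 CPM for ET and 7.31 to 10.2 for WT, with a log2 fold change of -0.64 (SE 0.20, adjusted p = 0.111). Mnd1 had 3.15 to 7.89 for ET and 2.62 to 5.50 for WT (-0.64, SE 0.39). Tex15 had 5.35 to 9.05 CPM in all 12 libraries and a log2 fold change of 0.16 in WT against ET. Meiob and Spata22, which coat single-stranded DNA, had 1 to 9 and 0 to 5 counts per library.

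Of the genes of crossover formation, only Tex11 met the 2-fold criterion in any comparison. Tex11, an X-linked crossover factor, had 4.32, 3.68 and 7.10 CPM for ET, 2.11, 1.53 and 2.08 for WT, 4.71, 6.87 and 9.20 in the K238R-labelled teratomas and 2.16, 4.14 and 4.35 in K412R. Every library outside WT lay above every WT library, K412R replicate 1 by 2.16 against 2.11. Its fitted log2 fold change was -1.40 in WT against ET (SE 0.36, adjusted p = 0.101), 1.86 in the K238R-labelled teratomas against WT (SE 0.36, adjusted p = 0.0671) and 0.89 in K412R against WT (SE 0.36, adjusted p = 0.169). Msh5 (1.11 to 2.80 CPM), the mismatch repair gene Mlh3 (17.6 to 23.2 CPM) and the helicase gene Hfm1 (5.25 to 9.28 CPM) had log2 fold changes of 0.08, 0.02 and 0.29 in WT against ET, with adjusted p from 0.258 to 0.908. Msh4, the partner of Msh5, had 0 to 10 counts per library.

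At the telomeres, Terb1, which tethers chromosome ends to the nuclear envelope, had 0.225 to 0.642 CPM for ET, 0.340 to 0.476 for WT and 0.525 to 0.854 in K412R, a log2 fold change of 0.79 in K412R against WT (adjusted p = 0.291). Its partner Terb2 had 0 counts in all 3 WT libraries, 1, 0 and 5 for ET, 6, 4 and 1 in the K238R-labelled teratomas and 1, 0 and 2 in K412R. In the fit without a filter on low counts Terb2 had an unadjusted p of 0.0408 in WT against ET and 0.0144 in the K238R-labelled teratomas against WT (adjusted p = 0.228 and 0.249 from edgeR), and no fold is given from so few counts. Majin had 1 to 7 counts per library. Tex14, which keeps the bridges between dividing germ cells open, had 3.54, 1.58 and 4.73 CPM for ET and 1.61, 0.680 and 1.01 for WT. It had 2.91, 3.13 and 2.58 CPM in the K238R-labelled teratomas and 1.99, 3.21 and 1.67 in K412R, and ET replicate 2 just overlapped WT replicate 1. In log2 terms the differences were -1.57 in WT against ET (SE 0.43, adjusted p = 0.105), 1.38 in the K238R-labelled teratomas against WT (SE 0.43, adjusted p = 0.158) and 1.05 in K412R against WT (SE 0.43, adjusted p = 0.183). Hspa2, a chaperone of spermatocytes that other tissues also use, had 11.7 to 31.4 CPM for ET and 25.1 to 26.6 for WT (log2 fold change 0.32, adjusted p = 0.446).

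Against ET, the K238R-labelled teratomas and K412R gave few calls among the meiosis genes. In the K238R-labelled teratomas against ET, 0 of 30 passed the adjusted threshold with edgeR, where 0% of all genes did, 1 had an unadjusted p under 0.05 (Ankrd31, log2 fold change 0.86), with 5.58% of all genes, 0 met the 2-fold criterion, where 0.951% of all genes did, and DESeq2 called 0, with 0.0761% of all genes. The median log2 fold change was -0.08. In K412R against ET, 0 of 30 passed with edgeR, again with 0% of all genes, 2 had an unadjusted p under 0.05 (Hsf2bp and Syce1, both lower), with 7.86% of all genes in either direction and 3.48% lower, DESeq2 called 0, with 0.489%, and Hsf2bp alone met the 2-fold criterion, where 0.875% of all genes were lower by it. The estimate was below 0 for 25 of 30 genes in K412R, with a median of -0.35, where it was for 9854 of all 18405 genes. In the K238R-labelled teratomas it was below 0 for 18 of 30, where it was for 9874 of all 18405 genes. A p that misses the threshold with 3 libraries a group does not show that these groups are at the level of ET.

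Compared directly, the K238R-labelled teratomas had more of several meiotic transcripts than K412R. By the 2-fold criterion 6 of 30 were higher, Hsf2bp, Sycp1, Tex12, Rec114, Syce1 and Ankrd31, where 0.831% of all genes were. Without overlap 11 of 30 were higher, against 8.93% of all genes, and 2 were lower, where 1963 of all 18405 genes were. The median log2 fold change of the list was 0.42. With edgeR 0 passed the adjusted threshold, where 0.0217% of all genes did, 10 had an unadjusted p under 0.05, all higher, where 4.81% of all genes were higher and 11.9% differed in either direction, and DESeq2 called Syce1, with 2.03% of all genes. Sycp1 had a log2 fold change of 1.34 (SE 0.49, adjusted p = 0.307), Syce1 of 1.40 (SE 0.37, adjusted p = 0.180) and Ankrd31 of 1.40 (SE 0.40, adjusted p = 0.208).

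Other genes of meiosis outside the 39 were looked at as a second list, of which 29 were in the files and 27 were tested. In WT against ET 18 of the 27 were estimated lower and 9 higher, where 9350 and 9054 of all 18405 genes were. Those estimated higher included Zfp541 (log2 fold change 0.82, SE 0.46) and Meiosin (0.56, SE 0.48). By the 2-fold criterion 3 were lower, where 2.78% of all genes were, and 0 higher, where 3.3% were. The 3 were the crossover gene Shoc1 (log2 fold change -2.55, SE 0.78), Fkbp6 (-1.81, SE 0.78) and M1ap (-1.64, SE 0.67), and the median of the list was -0.30. In the K238R-labelled teratomas against WT 3 were higher, Shoc1 (2.26), Fkbp6 (1.83) and Mael (1.17, SE 0.28), where 1.68% of all genes were, with a median of 0.27. In K412R against WT 0 met it, where 1.66% of all genes were higher by it and 3.38% lower. None of the 27 passed the adjusted threshold in these 3 comparisons with edgeR, where 0.0489%, 0.174% and 2.02% of all genes did. An unadjusted p under 0.05 was found for 9, 5 and 2, where 29.1%, 17.6% and 22.8% of all genes had it. DESeq2 called 3, 2 and 1, where it called 10.3%, 4.27% and 9% of all genes.

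Markers of germ cells, of dividing cells and of undifferentiated cells had list medians below every ET library in WT replicates 2 and 3. In WT replicate 1 these medians were -0.40, -0.49 and -0.32, within the range of ET. ET replicate 2 had -0.54, -0.63 and -0.41, all as log2(CPM + 0.5) minus the ET mean. All WT libraries lay below all ET libraries in 3 of 13 germ cell, 7 of 20 mitosis and 4 of 16 pluripotency genes, against 10.5% of all genes. Of the 13 tested of 20 germ cell genes, 6 were lower in WT than in ET by the 2-fold criterion (2.78% of all genes), 6 higher in the K238R-labelled teratomas than in WT (1.68%) and 2 higher in K412R than in WT (1.66%). Dazl, an RNA-binding protein of germ cells, had 24.9, 3.09 and 34.4 CPM for ET and 3.89, 0.227 and 0.595 for WT. Ddx4, the germ cell helicase, had 3.65 to 3.85 CPM for ET, 1.67 to 3.23 for WT, 5.31 to 7.71 in the K238R-labelled teratomas and 2.85 to 4.14 in K412R, so that its highest group was the K238R-labelled teratomas. All 20 mitosis genes were estimated lower in WT than in ET, where 9350 of all 18405 genes were, 13 of them by the 2-fold criterion (2.78% of all genes). Their median log2 fold change was -1.04, and Mki67 had 496, 311 and 727 CPM for ET against 295, 235 and 206 for WT. The summed CPM of the 20 mitosis genes was 1157.5 to 2745 for ET, 726 to 1191 for WT, 1019.8 to 1830.1 in the K238R-labelled teratomas and 1323 to 1457 in K412R. Of 16 pluripotency genes tested 5 were lower in WT by the 2-fold criterion (2.78% of all genes), and Pou5f1 had 24.2 CPM in WT replicate 1 but 2.49 and 1.01 in replicates 2 and 3, with 23.1 to 49.8 for ET. The part of any of these in the meiosis values was not tested. The late spermatogenic list showed no such pattern as a list. Of its 15 genes 6 were tested, with 3 estimated higher and 3 lower in WT than in ET and a median log2 fold change of 0.08. In 1 of the 6, Spaca1, all WT libraries lay below all ET libraries (-1.35, SE 0.65, adjusted p = 0.183 with edgeR), against 10.5% of all genes. The summed CPM of the list was 21.1 to 29.1 for ET, 24.1 to 25.7 for WT, 20.9 to 24.2 in the K238R-labelled teratomas and 22.1 to 25.2 in K412R. Its members Prm1, Prm2 and Acrv1, which define late spermatids and sperm, had 0 counts in every library.

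**Figure D4:**
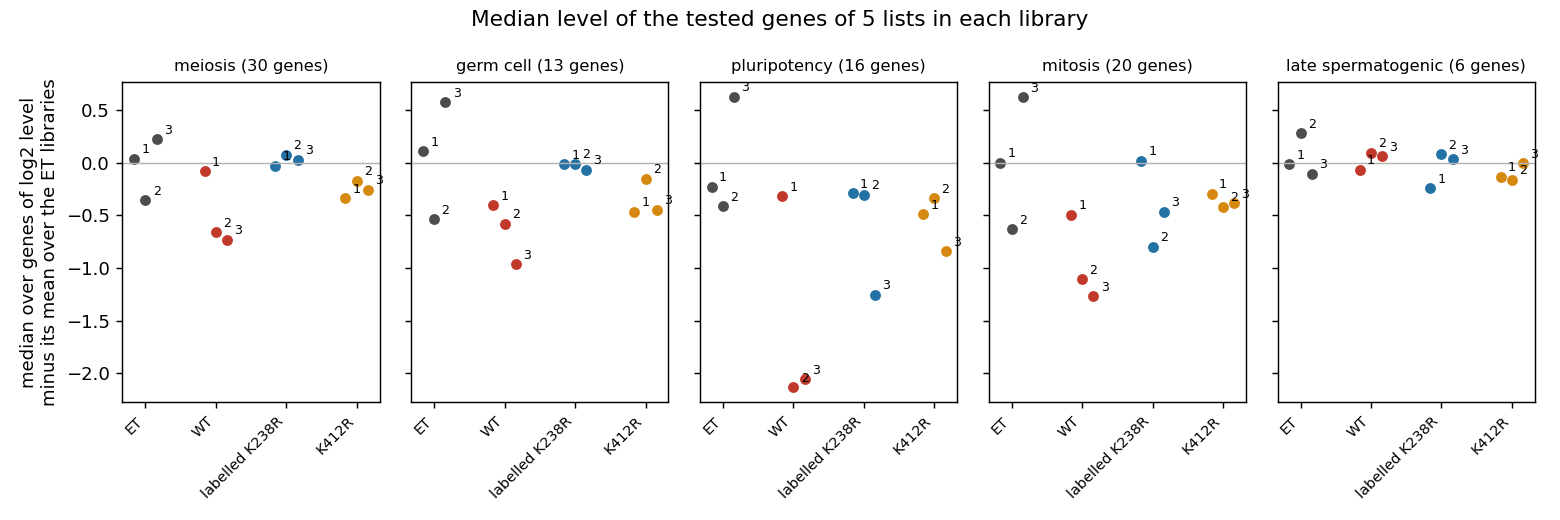
Median over the tested genes of 5 lists of the level in each library (points, numbered by replicate), as log2(CPM + 0.5) minus its mean over the ET libraries. The meiosis median is -0.66 and -0.73 in WT replicates 2 and 3, -0.08 in WT replicate 1 and -0.36 in ET replicate 2, the germ cell, pluripotency and mitosis medians are also lowest in a WT library, and the late spermatogenic medians lie close to 0.

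Of 16 tested genes that make, carry, break down or receive retinoic acid, the signal for Stra8, 11 were estimated lower in WT than in ET and 5 higher. Of all 18405 genes, 9350 were estimated lower and 9054 higher. The median log2 fold change of the 16 was -0.45. As the list mixes these functions, its counts and median do not measure the supply of retinoic acid. By the 2-fold criterion Crabp2 (-1.53), Aldh1a3 (-1.40) and Rbp4 (-1.05) were lower, where 2.78% of all genes were, and Aldh1a1 (1.32) was higher, where 3.3% were, with adjusted p from 0.101 to 0.158. Cyp26b1, which breaks retinoic acid down and keeps male germ cells from meiosis in the embryo, had 39.1, 34.0 and 27.9 CPM for ET, 51.3, 66.3 and 60.2 for WT, 52.3, 35.0 and 52.0 in the K238R-labelled teratomas and 38.7, 27.4 and 34.7 in K412R. It fell in K412R against WT (log2 fold change -0.82, SE 0.19, adjusted p = 0.048), and was above ET in WT by 0.82 on the log2 scale without passing the threshold (adjusted p = 0.101). Cyp26a1, which also breaks retinoic acid down, had estimates in the opposite direction. They were -0.93 in WT against ET (SE 0.35, adjusted p = 0.127 with edgeR) and 1.22 in K412R against WT (SE 0.35, adjusted p = 0.0816). The second met the 2-fold criterion, by which 1.66% of all genes were higher. Aldh1a2, which makes retinoic acid, had 11.4 ± 3.70 CPM (SD, n = 3) for ET, 11.3 ± 1.68 for WT, 4.27 ± 1.27 in the K238R-labelled teratomas and 7.91 ± 2.14 in K412R. The retinol carrier gene Rbp4 rose in K412R against WT (log2 fold change 1.33, SE 0.25, adjusted p = 0.0267). These values stand beside those of Stra8, and their part in them was not tested.

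The count past the adjusted threshold in WT against ET rose when ET replicate 2 or WT replicate 1 was left out. Without ET replicate 2, 11 of 30 meiosis genes passed the adjusted threshold in WT against ET, 10 lower and Hspa2 higher, but 31% of all genes then passed it. Without WT replicate 1, 5 passed (Stra8, Sycp1, Hormad1, Tex14 and Syce1, all lower), with 6.93% of all genes. Without both, 16 of 30 passed, with 37.5% of all genes, and the median was -1.05. The 2-fold criterion gave between 8 and 15 genes in WT against ET, and between 8 and 13 in the K238R-labelled teratomas against WT, when each library was left out in turn. In K412R against WT it gave 9 without WT replicate 1, but 1 without WT replicate 2, 2 without WT replicate 3 and 3 without K412R replicate 2. In these fits, in the same order, 5.37%, 0.234%, 0.0638% and 0.909% of all genes passed the adjusted threshold. The share of all genes that met the 2-fold criterion is not given for fits with a library left out, so these changes are not read as particular to the meiosis genes.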

How the data were processed

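RNA-seq libraries of 12 mouse teratomas were analysed, 3 in each of 4 groups named by the labels. Per the methods, CORALL libraries of poly(A)-selected RNA underwent paired-end sequencing, and the authors used Fastp for trimming, STAR for mapping and Salmon for quantification. The submitters' processing notes name GRCm39 and GATK as well. Versions of these tools, the annotation, strand setting and use of molecular identifiers are not given in the sources used here, and reads of overlapping genes may not be told apart. The deposited values are estimated counts per gene, whole numbers without normalization.

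Counts were scaled by TMM and filtered with filterByExpr (edgeR 4.0.16, limma 3.58.1, R 4.3.3). A quasi-likelihood model with 1 mean per group was fitted to all 12 libraries, and p-values were Benjamini-Hochberg adjusted over all 18405 genes tested. Calls were an adjusted p under 0.05, or a 2-fold difference with an unadjusted p under 0.05. DESeq2 1.42.0, other scalings, no filter beyond 1 count, fits of 2 groups, a replicate block and leaving out each library were alternatives. On counts simulated from these libraries the test was checked before use. Named in full are meiosis genes that met either call in any of 6 comparisons, plus Stra8 and Sycp3. The other lists are described by counts and medians: other meiosis, mitotic counterpart, germ cell, late spermatogenic, pluripotency, mitosis, retinoic acid and motile cilium genes. The 39 genes, the lists and the tests were chosen with earlier results of these data known. Exon lengths (GENCODE vM21) and promoters (RefSeq) are of GRCm38, and no coordinates were converted. The depth of 16957677 to 18546100 counts per library limits genes under 3 counts.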

Additional observations from a re-analysis of the deposited data

Results flagged for a closer look

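In 3 meiosis genes every K238R-labelled library lay above the mean level of ET and every K412R library below it, while neither group differed from ET past the adjusted threshold. The log2 fold change of the K238R-labelled teratomas against K412R was 1.40 for Syce1, with an adjusted p of 0.180 from edgeR's quasi-likelihood test. It was 1.55 for Rec114 (adjusted p = 0.230) and 1.40 for Ankrd31 (adjusted p = 0.208). The ET means were 5.70, 1.43 and 2.42 CPM. These adjusted p are from the test of the difference between the 2 groups, and they miss the threshold. Over the alternatives the lowest adjusted p were 0.021 for Syce1, 0.0863 for Rec114 and 0.0561 for Ankrd31, the first from DESeq2. With 30 genes compared, agreement of 6 libraries in sign with an ET mean from 3 libraries is no test.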

How the results depend on the processing

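Of the 180 fold changes of the 30 genes in 6 comparisons, 50 changed sign under at least 1 of 19 alternatives, from 6 of 30 in each comparison with WT as a member to 16 of 30 in the K238R-labelled teratomas against ET, and 0 of the 33 that met the 2-fold criterion did. Over 36 fold changes followed in the 14 genes named in full (those called, with Stra8 and Sycp3 in 3 comparisons), 594 recomputed values kept direction and side of the adjusted threshold, 78 came to pass it, 10 came to miss it and 1 changed sign, Sycp3 in K412R against WT at -0.062 without WT replicate 3. Counts past the adjusted threshold are given with the percentage of all genes that passed under the same alternative. In WT against ET (0 by the test used) the count was 8 with DESeq2 (10.3%), 3 without a filter (0.624%), 4 with the replicate block (4.98%), 0 to 11 with 1 library left out (31% at 11, without ET replicate 2) and 16 without both ET replicate 2 and WT replicate 1 (37.5%), where the median log2 fold change was -1.05. Leaving out these 2 libraries, chosen after seeing the data because each lay toward the other group, widens the difference by construction. For the K238R-labelled teratomas against WT (1) it was 6 with DESeq2 (4.27%), 0 with total counts, 6 without a filter (0.875%), 4 in a fit of the 2 groups (2.03%), 3 with the replicate block (1.13%), 0 to 7 with 1 left out (4.3% at 7, without ET replicate 2) and 10 without both (11.3%). In K412R against WT (0) it was 1 with DESeq2 (9%), 2 in a fit of the 2 groups (10.7%), 0 to 2 with 1 left out (8.2% and 5.37% at 2, without ET replicate 2 and WT replicate 1) and 8 without both (18.2%). In K412R against ET (0) it was 2 without both (1.98%), and in the K238R-labelled teratomas against K412R (0) it was 1 with DESeq2 (2.03%) and 1 without both (1.19%). The count by the 2-fold criterion ran from 1 to 9 in K412R against WT (6) and from 3 to 7 in the K238R-labelled teratomas against K412R (6, lowest without K412R replicate 1) with 1 library left out. In the K238R-labelled teratomas against ET (0) it was 1 without a filter, 0 to 2 with 1 left out and 1 without both. In K412R against ET (1) it was 2 with DESeq2, with total counts and in a fit of the 2 groups, 3 without a filter, 0 with the replicate block, 0 to 7 with 1 left out (7 without ET replicate 2) and 7 without both. The share of all genes that met the 2-fold criterion under each alternative is not given, so its changes are not read as particular to the meiosis genes.

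The median log2 fold change in K412R against WT (0.22) was 0.056 to 0.67 with 1 library left out (0.67 without WT replicate 1) and 0.66 without both, and in the K238R-labelled teratomas against ET (-0.08) it was -0.15 to 0.21, above 0 without ET replicate 3. For the K238R-labelled teratomas against K412R (0.42) it was 0.52 without a filter, 0.32 with the replicate block and 0.28 to 0.55 with 1 left out. Same-numbered libraries shared deviations with r over 0.1 in 7 of 18 pairs of libraries, so the numbers were not taken to pair the samples. The cause of these changes was not tested, and for Syce3, with at most 3 counts per library, counting error limits any difference.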

Other observations

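Motile cilium genes, another set shared by sperm-forming and ciliated tissues, were looked at as well. Of 15 tested, 10 were estimated higher and 5 lower in WT than in ET, where 9054 and 9350 of all 18405 genes were. By the 2-fold criterion 2 were higher, where 3.3% of all genes were, Dnah5 (log2 fold change 1.49, standard error 0.34) and Dnai1 (1.0, standard error 0.34). In the K238R-labelled teratomas against WT 10 of 15 were estimated lower, where 9187 of all 18405 genes were. By the 2-fold criterion 3 were lower, where 3.59% of all genes were, Dnah5 (-1.80), Cfap43 (-1.36) and Hydin (-1.32). In K412R against WT 10 of 15 were estimated lower and 5 higher, where 8985 and 9420 of all 18405 genes were, with a median of -0.14 over the 15. By the 2-fold criterion 1 was higher, Dnah11, where 1.66% of all genes were, and 0 lower, where 3.38% were. Dnah11 fell in WT against ET (log2 fold change -0.80, standard error 0.11) and rose against WT in the K238R-labelled teratomas (0.64) and in K412R (1.07). Each passed the adjusted threshold with edgeR, as did 0.0489%, 0.174% and 2.02% of all genes. Rfx2, a transcription factor of ciliated cells and spermatids, rose in K412R against WT (0.64, standard error 0.12), as did Dnah9 (0.52, standard error 0.09). With Dnah11, 3 of 15 passed the adjusted threshold in that comparison.

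The mitotic counterparts of the meiosis genes, such as Smc1a, Rad21 and Stag2, were all 11 estimated lower in WT than in ET, where 9350 of all 18405 genes were. The median log2 fold change of the 11 was -0.40. None met the 2-fold criterion, by which 2.78% of all genes were lower, or passed the adjusted threshold with edgeR, where 0.0489% did. An unadjusted p under 0.05 was found for 7, with 29.1% of all genes, and DESeq2 called 2, with 10.3% of all genes.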
